A study of Mus musculus with 26 samples.

Results

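Of 46089 probes on mouse Illumina bead arrays, 52 had a deposited intensity of at least 180 on all 10 arrays of T-ALL (T cell acute lymphoblastic leukaemia, a cancer of immature T cells) and a detection p-value of at least 0.01 on all 16 arrays of normal thymocytes. The detection p-value asks whether a probe is brighter than the array's negative controls, so these probes were bright in every tumour and not called above background in any thymocyte sample. Those values chose the probes, and the difference between tumours and thymocytes is therefore a description here, with no test. A platform table gave 45 of the 52 probes a gene symbol, for 43 genes, with Trim10 and Rhag on 2 probes each, and 7 probes had none. Most of the named genes are known from erythroid cells, macrophages, neutrophils and platelets rather than from T cells.

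The 10 tumours were 3 labelled Rag-deficient, on a C57BL/6 background, and 7 labelled Rag-proficient, on an F1(WB x B6/Ly5.1) background. The 16 thymocyte samples came from C57BL/6 mice and covered 7 stages, labelled ETP (2 samples), TN2 (2), TN3a (3), TN3b (2), TN4 (3), ISP (2) and DP (2). The labels name neither the Rag gene nor the allele, give no age, and state that material was either sorted or taken directly from cell suspensions, without saying which applied to a given sample. Rag status and strain background cannot be told apart. Nothing in the labels states that replicates are different animals, and the p-values given here reflect array-to-array spread, which may be technical.

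Rag1 and Rag2 encode the recombinase that assembles antigen receptor genes in developing lymphocytes. T-ALL arises in the thymus and in mice often spreads to spleen and marrow. Spleen and marrow also hold red cell precursors, macrophages that clear red cells and recycle their iron, granulocytes and platelet-forming megakaryocytes. In a bulk RNA sample, more cells of a type and more RNA per cell cannot be told apart.

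Each sample title holds a long number, mostly shared with other arrays, that was read here as the slide. No label states this, and the slides were numbered here in order. On that reading, tumour arrays lay on 3 slides and thymocyte arrays on 4 others, with 0 slides shared, so slide and tissue cannot be told apart. All 3 Rag-deficient arrays were on slide 3 together with Rag-proficient replicate 7. Array medians were 121 to 146 on T-ALL arrays and 79.6 to 110 on thymocyte arrays. The share of probes detected was 42.6% to 46.4% on T-ALL arrays and 34.7% to 41.7% on thymocyte arrays, except for TN2 replicate 2 at 21.3%. Of the T lineage markers, 6 of 9 were measured, and all 6 were detected on all 10 tumour arrays. Their summed intensity was 57939 to 73123 in Rag-deficient tumours, 39087 to 74098 in Rag-proficient tumours and 662 to 65156 in thymocytes.

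Erythroid and myeloid markers were also bright in the tumours. Summed over the 5 measured of 6 erythroid markers, intensity was 85509 to 104177 in Rag-deficient tumours, 81163 to 105823 in Rag-proficient tumours and 414 to 5356 in thymocytes. Alas2 is the only one of these markers among the 52 probes. The sum over 11 of 11 myeloid markers was 18990.2 to 29932 in Rag-deficient tumours, 6510.3 to 59789 in Rag-proficient tumours and 951 to 24850.1 in thymocytes. Its thymocyte median was 1125. In thymocytes an Mpo probe reached 21824, whereas S100a8 was at most 240 and S100a9 at most 123. The B lineage sum, 831 to 1286 in Rag-deficient and 747 to 2071 in Rag-proficient tumours, lay within the 474 to 2900 of thymocytes. The NK marker sum was 1594 to 1723 in Rag-deficient and 1065 to 2821 in Rag-proficient tumours, and 1240 to 7187 in thymocytes. The dendritic sum was 2736 to 4655 in Rag-deficient and 1927 to 6936 in Rag-proficient tumours, above the 511 to 1322 of thymocytes. The stroma and endothelium sum was 1431.5 to 1512 and 1406 to 2466, above 550 to 1210. Only 3 of 6 dendritic and 2 of 7 stroma and endothelium genes were detected on all 10 tumour arrays, whose array medians were also higher. The part of these cells in the results that follow was not tested.

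The 52 probes ranged over 181 to 13175 in intensity on tumour arrays and over 69.3 to 122 on thymocyte arrays. With all 26 arrays normalised together, and each thymocyte value set no lower than the dimmest detected probe of its array, the Rag-deficient mean was at least 2.39-fold to at least 134-fold above the thymocyte mean, with a median bound of 8.25. The matching bounds for Rag-proficient tumours were 3.97 to 207, with a median of 15.1. The same values chose the probes, so tumour means above thymocyte means were built in and the folds only describe that choice. Tumours and thymocytes share no slide, so any slide difference is part of these folds and the bounds hold only for this normalisation. Every one of the 52 was detected on all 10 tumour arrays when the detection p-values were made one-sided. The intensity minimum largely built this in, so it gives no separate support to the choice. A far dimmer Metap2 probe outside the 52, with a lowest tumour value of 130.19, was detected on all 10 too.

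The edges of the choice were close. Just inside the intensity minimum were Mertk, with a lowest tumour value of 180.87, Chil3 at 181.63, Ngp at 184.92, Apoc1 at 188.70 and the unnamed probe ILMN_2524992 at 188.82. Just outside were a second Adgre1 probe at 179.71, Tmem196 at 177.35, Add2 at 176.49, the unnamed ILMN_2907370 at 176.24 and Ms4a7 at 174.88. Just inside the detection limit, the lowest thymocyte p-value was 0.01007 for C1qc, 0.01036 for Kel, 0.01153 for Lrg1, 0.01172 for Mertk and 0.01305 for Ngp. Just outside it stood Fcna at 0.00995, Vcam1 at 0.00876, one Hbb-b1 probe at 0.0075, a second Ppbp probe at 0.00715 and the unnamed ILMN_2534125 at 0.00693. Of 33 further probes of 21 member genes, 19 were detected on all 10 tumour arrays, and 15 of those 19 were detected on at least 1 thymocyte array. Among those 15, Metap2 probes were detected on 10, 12 and 15 thymocyte arrays and 1 Slc11a1 probe on 16. The rest were each detected on 1 to 4 of the 16 thymocyte arrays. Absence from thymocytes is thus a statement about these probes and not about the genes.

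For the account that follows, the named probes were grouped by textbook role, a grouping made after their values were seen. There were 10 probes of 8 erythroid genes, 8 macrophage probes, 6 neutrophil probes, 4 platelet probes, 17 other named probes and 7 without a symbol.

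Promoter sequence is shown for a member or 2 of each role group, because DNA motifs of the lineage factors GATA1, PU.1 and C/EBP are well described. Promoters were printed only where the bases shown held the motif looked for in that group, so they do not stand for their groups. RefSeq promoters (GRCm38.p6) matched 30 of the 43 member genes. Each line gives the 130 bases before the start site, 5′ to 3′, with the motif in capitals.
Alas2, chrX:150547287-150547416 (+ strand): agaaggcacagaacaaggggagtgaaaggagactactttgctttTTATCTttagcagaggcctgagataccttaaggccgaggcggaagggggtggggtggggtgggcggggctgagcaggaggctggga
Kel, chr6:41704326-41704455 (- strand): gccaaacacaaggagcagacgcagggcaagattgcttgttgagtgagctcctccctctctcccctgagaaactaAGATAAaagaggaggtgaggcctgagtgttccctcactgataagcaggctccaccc
Mpig6b, chr17:35066185-35066314 (- strand): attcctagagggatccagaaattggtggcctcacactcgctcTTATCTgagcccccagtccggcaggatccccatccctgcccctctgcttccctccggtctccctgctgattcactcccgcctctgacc
C1qb, chr4:136886201-136886330 (- strand): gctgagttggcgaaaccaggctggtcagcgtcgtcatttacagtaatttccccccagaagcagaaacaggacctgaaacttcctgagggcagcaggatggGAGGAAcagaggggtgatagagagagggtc
Ngp, chr9:110419678-110419807 (+ strand): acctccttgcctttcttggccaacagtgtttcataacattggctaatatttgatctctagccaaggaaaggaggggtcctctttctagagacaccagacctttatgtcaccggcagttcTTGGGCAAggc
In the 250 bases before the start, the GATA motif AGATAA (or TTATCT on the other strand) was in 3 of 7 erythroid genes, 7 of 30 member genes and 11.4% of all 27025 genes in the table. The PU.1 motif GAGGAA or TTCCTC was in 3 of 4 macrophage genes, 12 of 30 member genes and 25.9% of all. The C/EBP motif TTGCNNAA or TTNNGCAA was in 3 of 6 neutrophil genes, 6 of 30 member genes and 10.8% of all. A CACCC-type motif, CCNCNCCC or GGGNGNGG, was in 2 of 7 erythroid genes, 15 of 30 member genes and 48.5% of all. That motif was also in 3 of 4 macrophage, 2 of 6 neutrophil and 1 of 4 platelet genes. The motifs did not keep to 1 role group each: C/EBP was also in 2 of 4 platelet genes, GATA in 2 of 6 neutrophil and 1 of 4 platelet genes, and PU.1 in 2 of 7 erythroid, 2 of 6 neutrophil and 1 of 4 platelet genes. The motifs were chosen with the role groups in view, and a match is a description of letters only.

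The choice of probes held every tumour to the same minimum without regard to Rag status, so it did use the tumours' own values: without Rag-deficient replicate 2 in the rule, 70 probes would have been chosen. Between Rag-deficient and Rag-proficient tumours, limma called 3 of the 52 probes lower and 0 higher at an adjusted p under 0.05. Over all 22951 probes tested, 0.414% were called in either direction, 0.344% lower and 0.0697% higher. The 3 were Lrg1, a secreted glycoprotein of neutrophil granules and liver, and the platelet chemokines Pf4 and Ppbp. In log2 terms, 45 of the 52 probes were lower in Rag-deficient tumours (86.5%), with a median difference of -0.83, where 45.6% of all probes tested were lower and their median was 0.04. Of the 52, 25 had an unadjusted limma p under 0.05 (48.1%), against 9.8% of all probes tested. Without Rag-deficient replicate 2 that count was 4, with a median difference of -0.50 and 47 of the 52 lower. With slide as a fixed block it was 6. The other 9844 probes of at least 180 in all tumours had a median of 0.03 with 45.5% lower. The 52 probes are not independent of each other: all 10 erythroid probes had the same lowest tumour, Rag-deficient replicate 2. That tumour was the lowest of the 10 for 36 of the 52 by intensity and for 26 on the normalised log2 scale. These shares are therefore a description, with no test.

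Slide moved with this contrast. Against Rag-proficient replicate 7, the only tumour of the other group on the same slide, the median difference of the 52 was -0.31, with 41 lower, and limma with slide as a fixed block called 0 of them. The calls also rested on single arrays: 0 were made without Rag-proficient replicate 3 or without Rag-deficient replicate 1, 1 without Rag-proficient replicate 2, Rag-proficient replicate 5 or Rag-deficient replicate 2, and 8 without Rag-deficient replicate 3, of which 1 was among the 3. Without Rag-proficient replicate 3 the log2 differences were -2.08 for Lrg1, -1.36 for Ppbp and -1.29 for Pf4. Without Rag-deficient replicate 1 they were -1.95, -1.18 and -1.29.

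Platelet genes held 2 of the 3 calls, Pf4 and Ppbp. Both lost the call with median scaling (limma adjusted p = 0.0993 and 0.074), where Lrg1 kept its own. The same held without Rag-proficient replicate 2, Rag-proficient replicate 5 or Rag-deficient replicate 2. Without Rag-deficient replicate 3, Ppbp kept its call and Lrg1 and Pf4 did not. Pf4, platelet factor 4, read 479, 442 and 512 in Rag-deficient tumours, and in Rag-proficient tumours its lowest, median and highest values were 648, 1019 and 1936. The groups did not overlap, and the log2 difference was -1.37 ± 0.25 (SE, n = 3 and 7, limma adjusted p = 0.0379). Ppbp, the precursor of another platelet chemokine, read 512, 610 and 744 in Rag-deficient tumours, against 971, 1454 and 2543 (lowest, median, highest) in Rag-proficient tumours. All 3 Rag-deficient values were below all 7 others, with a log2 difference of -1.43 ± 0.26 (SE, n = 3 and 7, limma adjusted p = 0.0379). The other platelet probes were Gp1bb, a subunit of the von Willebrand factor receptor, at -0.84 (adjusted p = 0.447), and Mpig6b, an inhibitory receptor of megakaryocytes, at -0.76 (adjusted p = 0.499); neither was called. On slide 3 alone the log2 differences of Pf4 and Ppbp were -1.27 and -1.19, against a single Rag-proficient array.

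Among the 6 neutrophil probes, only Lrg1 was called. Lrg1 read 314, 423 and 265 in Rag-deficient tumours, against 594, 1232 and 1488 (lowest, median, highest) in Rag-proficient tumours. The groups did not overlap, and the log2 difference was -2.08 ± 0.35 (SE, n = 3 and 7, limma adjusted p = 0.0255). On slide 3 alone the difference was -2.35 for Lrg1, -2.56 for Lcn2 and -2.42 for Ngp, so Lrg1 did not stand apart there. Lcn2, which binds bacterial siderophores, read 866, 2352 and 1068 in Rag-deficient tumours, against 239, 653 and 7978 (lowest, median, highest) in Rag-proficient tumours. Ngp, a neutrophil granule protein, read 827, 1806 and 799 in Rag-deficient tumours, against 185, 602 and 5802 in Rag-proficient tumours. Both sets of Rag-deficient values fell inside the range of the Rag-proficient ones, and limma called neither (adjusted p = 0.954 for Lcn2 and 0.905 for Ngp).

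Several neutrophil genes varied widely among the Rag-proficient tumours. The SD of log2 intensity among the 7 Rag-proficient tumours was 2.06 for Ngp, 1.99 for Lcn2, 1.81 for Chil3, a chitinase-like lectin, 1.71 for Retnlg, a resistin-like protein, and 1.21 for Fpr2, a formyl peptide receptor, but 0.56 for Lrg1. By intensity, replicate 7 was the highest of the 10 tumours for 5 of the 6 neutrophil probes and replicate 6 the lowest for 5 of 6. On the normalised log2 scale those counts were 3 and 3, with replicate 4 highest for the remaining 3. On slide 3, where replicate 7 is the only Rag-proficient array, all 6 neutrophil probes were lower in the Rag-deficient tumours, with a median difference of -2.23, whereas over all 10 arrays 4 of the 6 were higher. Lrg1 and Fpr2 were lower both ways, and Ngp, Lcn2, Chil3 and Retnlg turned. Slide and this 1 tumour cannot be told apart there.

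Among Rag-deficient tumours the macrophage genes split by array. Their log2 mean was lower in Rag-deficient tumours for all 8 probes, with a median of -1.03, and limma called 0 of the 8. On slide 3 the median was -0.22, with 6 of 8 lower. C1qb, a chain of the complement component C1q made mainly by macrophages, read 1377, 1156 and 4461 in Rag-deficient tumours, against 2415, 3094 and 8508 (lowest, median, highest) in Rag-proficient tumours. Rag-deficient replicate 3 lay within the Rag-proficient range and the other 2 below it. Mertk, a receptor for dying cells, read 199, 181 and 701 in Rag-deficient tumours, against 459, 623 and 1416 in Rag-proficient tumours. Its log2 difference was -1.83 ± 0.57 (SE, n = 3 and 7, limma adjusted p = 0.307), and -1.35, -1.32 and -2.81 without Rag-deficient replicate 1, 2 or 3 in turn (adjusted p = 0.619, 0.776 and 0.0117). On slide 3 alone it was -0.86. Adgre1, the F4/80 antigen, showed the same split, with 203, 192 and 743 in Rag-deficient tumours and 410, 582 and 1554 in Rag-proficient tumours.

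The Adgre1 log2 difference was -1.70 (adjusted p = 0.355), and -1.19, -1.23 and -2.66 without Rag-deficient replicate 1, 2 or 3 in turn (limma adjusted p = 0.664, 0.8 and 0.017). Slc40a1, the iron exporter ferroportin, read 2398, 1401 and 6531 in Rag-deficient tumours, against 2588, 5059 and 10958 in Rag-proficient tumours. C1qc, the partner chain of C1qb, had a log2 difference of -1.10 (adjusted p = 0.497) that was 0.10 on slide 3 alone. Among Rag-deficient tumours replicate 3 was the highest for 7 of the 8 macrophage probes, and of all 10 tumours Rag-proficient replicate 3 was the highest for 7 of 8 by intensity and 6 of 8 on the normalised scale.

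Erythroid genes followed another order of tumours. Alas2, the first enzyme of haem synthesis in red cell precursors, read 10552, 3356 and 5670 in Rag-deficient tumours, against 4740 (lowest), 7156 (median) and 13175 (highest) in Rag-proficient tumours, and no more than 104 in thymocytes. The groups overlapped, with a log2 difference of -0.60 ± 0.36 (SE, n = 3 and 7, limma adjusted p = 0.62). All 10 erythroid probes were lower in log2 mean in Rag-deficient tumours, with a median of -0.95 and 0 called. On slide 3 the median was -0.23, with 9 of 10 lower. Rhag, the Rh-associated glycoprotein of the red cell membrane, gave -1.12 and -1.10 on its 2 probes (adjusted p = 0.497 and 0.488), or -0.35 and -0.30 on slide 3, and Kel, the Kell antigen, gave -1.07 (adjusted p = 0.381). Trim10, needed for terminal red cell maturation, read 4977, 1334 and 2176 on its brighter probe in Rag-deficient tumours, against 2260 (lowest), 2739 (median) and 4621 (highest) in Rag-proficient tumours.

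Rag-deficient replicate 1 was the highest of its group and replicate 2 the lowest of all 10 tumours for all 10 erythroid probes, on both scales. The highest of all 10 was Rag-proficient replicate 4 for 6 of 10 probes by intensity and for 10 of 10 on the normalised log2 scale. The median normalised log2 intensity of the 10 probes was 9.30, 7.54 and 8.42 in Rag-deficient replicates 1 to 3, against 8.79 in the lowest and 10.28 in the highest Rag-proficient tumour. In the erythroid marker list, 14 of 15 probes were lower in log2 mean in Rag-deficient tumours and 0 were called. The 15 probes cover only 5 genes, most of them are Hbb-b1 probes, and their median difference was -0.13. Klf1, an erythroid transcription factor, had the largest difference of that list, -1.14 (limma adjusted p = 0.377).

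The remaining 17 named probes had a median difference of -0.72, with 14 lower, 3 higher and 0 called. On slide 3 their median was -0.11, with 9 of 17 lower. 2810484G07Rik read 348, 366 and 575 in Rag-deficient tumours, against 550.1 (lowest), 675 (median) and 1172 (highest) in Rag-proficient tumours, a log2 difference of -1.13 ± 0.26 (SE, n = 3 and 7, limma adjusted p = 0.134). Slco2b1, an organic anion transporter, gave -1.42 (adjusted p = 0.447), or -0.31 on slide 3, with replicate 3 at 959 and the other Rag-deficient tumours at 271 and 242. Apol11b, an apolipoprotein L family gene, read 10415, 2305 and 3289 in Rag-deficient tumours, against 2689, 5538 and 8788 (lowest, median, highest) in Rag-proficient tumours. Ear3, of the eosinophil-associated ribonuclease family, read 620, 632 and 2229 in Rag-deficient tumours, against 1133, 1328 and 2556 in Rag-proficient tumours. Amotl1, an angiomotin family protein of cell junctions, varied with an SD of 1.45 among Rag-proficient tumours.

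Of the 52 probes, 4 had Rag groups that did not overlap in intensity: Lrg1, Pf4 and Ppbp, lower in Rag-deficient tumours, and Sdc1, a heparan sulphate proteoglycan of plasma cells and epithelia, higher at 484, 326 and 342 against 268 (lowest), 290.1 (median) and 323 (highest) in Rag-proficient tumours. Over all probes tested, 2.02% did not overlap on this scale, 0.85% lower and 1.17% higher in Rag-deficient tumours. On the normalised log2 scale, a count added after the first was seen, 5 of the 52 did not overlap, all lower, against 3.84% of all probes, 1.83% lower and 2% higher. Sdc1 dropped out, and 2810484G07Rik and Gp1bb joined Lrg1, Pf4 and Ppbp. The Sdc1 log2 difference was 0.45 with an adjusted p of 0.638 by limma, so its separation in intensity was not matched by a call.

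The spread among tumours was wide for these probes. Among the 3 Rag-deficient tumours the median SD of log2 intensity was 0.85, against 0.33 for the other 9844 probes of at least 180 in all tumours and 0.37 for all probes tested. The corresponding median SD among the 7 Rag-proficient tumours was 0.57 for the 52 probes, 0.33 for the other bright probes and 0.38 for all. An SD over 1 among Rag-proficient tumours was found for 6 of the 52 (11.5%), against 1.6% of the other bright probes and 4.3% of all. Over the 10 tumours, the highest intensity of a probe was 1.74 to 33.3 times its lowest, with a median of 3.90.

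A few arrays held most of the extremes. By intensity, Rag-deficient replicate 2 was the lowest of the 10 tumours for 36 of the 52 probes, and Rag-proficient replicate 3 the highest for 21. On the normalised log2 scale, replicate 2 was the lowest for 26, while Rag-proficient replicate 4 was the highest for 28 and replicate 3 for 7. Rag-proficient replicate 3 had the highest array median of the 10 tumours (146) and replicate 4 the lowest (121), so which tumour ranks highest depends on the scale. The smallest spread among Rag-proficient tumours was that of the unnamed probe ILMN_1232396, at an SD of 0.26, and its Rag-deficient values were 486, 468 and 1814.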

How the data were processed

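Illumina bead arrays measured total RNA from 26 mouse samples. The authors deposited, per the file headers, 1 table for T-ALL and 1 for thymocytes, each with a probe intensity on a linear scale and a detection p-value per array; the values show no background correction or normalisation. The labels' protocols name an Ambion kit for biotinylated cRNA; scanner software is not given in the sources used here. A deposited joint log2 table was not used. The T-ALL detection p-values behave as 2-sided and were made one-sided around each array's background.

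The 10 T-ALL arrays were background-corrected by normexp (offset 16), log2-transformed and quantile-normalised. Probes with a one-sided p under 0.01 on at least 3 arrays (22951) were fitted with limma 3.58.1 in R 4.3.3 (lmFit, eBayes), 2-sided, with Benjamini-Hochberg adjustment over all of them. The number of arrays limits the precision.

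Members and lists were chosen with earlier results of these data known. Probes named are the 10 highest in mean, the 10 with the largest Rag difference, the 10 most and 5 least variable among Rag-proficient tumours, the 5 nearest each side of each limit, and genes with 2 member probes. Any other named probe, and the role groups, were chosen after their values were seen. Platform annotation named 35667 probes and left 10422 unnamed; Chi3l3 was updated to Chil3. Alternatives covered background, scaling, filter, slide, variance model, fold minimum, each array left out, and the limits themselves.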

Additional observations from a re-analysis of the deposited data

Results flagged for a closer look

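The lowest or highest of the 7 Rag-proficient tumours lay far from the others for 2 of the 30 probes named by rule, with a gap to its neighbour that exceeded Dixon's critical value for 7 samples. The brighter Trim10 probe was high in Rag-proficient replicate 4, at a normalised log2 intensity of 12.53. C1qc was low in Rag-proficient replicate 7, at 10.27. Chance flags about 1 group in 20.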

How the results depend on the processing

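The number of members called in the Rag comparison was 3. It stayed at 3 with slide as a random block, with a trended and robust variance model and with a minimum change of 2-fold. It was 0 without background correction, 0 with no filter on dim probes, 0 with slide as a fixed block, 0 on slide 3 alone, which has a single Rag-proficient array assumed to vary like the others, and 1 with median scaling. Leaving out single arrays gave 0 to 8. Calls over all probes, 95 as reported, were 25 without background correction, 52 with no filter, 45 with the fixed block, 159 with the random block, 18 on slide 3 alone and 31 to 142 with an array left out. Lrg1 kept its direction under every alternative run. The median difference of members was -0.311 with the fixed block and on slide 3 alone, and the C1qc difference turned to 0.103 under both. The number of member probes was 88 at a minimum intensity of 150, 25 at 250, 11 at 500, 31 at a detection p of 0.05, 54 with TN2 replicate 2 set aside, and 52 to 70 with a T-ALL array left out. Members whose Rag groups did not overlap numbered 4 by intensity and 5 on the normalised log2 scale, an alternative added after seeing the data. The causes of these changes were not tested. No paired analysis was possible because the labels give no replicate numbers that the groups share.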
